A study of Chlorocebus aethiops with 12 samples.

Results

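MDFIC and MDFI are paralogs that share a cysteine-rich region called the I-mfa domain. They were followed through the probes whose accession on the array is NM_199072 for MDFIC or NM_005586 for MDFI, with each probe kept apart. These 2 genes, of 32379 target identifiers on the array, had 3 of its 41000 probes, 2 for MDFIC (A_32_P120567 and A_23_P327022) and 1 for MDFI (A_23_P42168), each printed as a single spot. The MDFIC probes were chosen by their measured levels in cells with and without MDFIC: A_32_P120567 follows the transfected MDFIC and A_23_P327022 does not, so this contrast is a description for both MDFIC probes and carries no test. The same contrast in MDFI and the effects of hormone on all 3 probes were not part of the choice and were tested.

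The RNA came from COS-1, a line of fibroblast-like cells derived from African green monkey kidney, and was hybridised to one-colour arrays of human probes. All cells had been transfected with S211A, a glucocorticoid receptor (GR) in which a serine that is phosphorylated after hormone binding is replaced by alanine. The 4 groups were cells with S211A alone given vehicle, cells with S211A alone given 100 nM dexamethasone (Dex), and cells with S211A+MDFIC given either vehicle or 100 nM Dex. Vehicle or Dex, a synthetic glucocorticoid that activates GR, was given for 6 h, beginning 48 h after transfection. Each group held 3 arrays, described by the labels as biological replicates, and no group lacked the mutant receptor or had the receptor that can be phosphorylated. The promoter and the extent of the MDFIC construct, and the share of cells that took it up, are not given in the sources used here. The series asks whether MDFIC alters transcription by a receptor that cannot be phosphorylated at this site.

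MDFI, the founding member of the family, binds myogenic transcription factors such as MyoD and keeps them from the nucleus and from DNA, and it also binds factors of the Wnt pathway. MDFIC carries a related domain, binds the cyclin T1 subunit of the elongation factor P-TEFb, and is a cytoplasmic partner of GR that leaves the receptor when hormone binds. Both are regulators that act by binding other proteins, and an array measures only their RNA.

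Levels are given either as the processed signal, which is the scanner's background-subtracted intensity, or as log2 of that signal relative to the 75th percentile of the same array. The 75th percentile lay between 853 and 1067 intensity units over the 12 arrays. Negative control spots had median signals of 2.30 to 4.25, and the dimmest spot that passed as well above background on an array lay between 10.3 and 18.5. All 3 probes were well above background, unsaturated and free of flags for outlier spots on all 12 arrays. The local background of A_32_P120567 carried an outlier flag on S211A+MDFIC vehicle replicate 3. The 12 arrays lay on 3 slides: slide 1 carried all of S211A vehicle and 1 array of S211A Dex (replicate 1), slide 2 the remaining 2 of S211A Dex with 2 of S211A+MDFIC vehicle (replicates 1 and 2), and slide 3 the last 4. In each Dex group 1 array lay farther from the other arrays of its group. S211A+MDFIC Dex replicate 2 differed from replicates 1 and 3 by a median of 0.176 and 0.191 on the log2 scale over the 31230 probes tested, whereas replicates 1 and 3 differed by 0.113. S211A Dex replicate 1, the only array of its group on slide 1, differed from replicates 2 and 3 by 0.162 and 0.126, whereas those differed by 0.103. Values that leaving out one of these arrays moved by over 1.5 times are given without it as well.

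The MDFIC probe A_32_P120567 is the one chosen for following the transfected MDFIC. Its processed signal was 96.7, 116 and 97.4 in S211A vehicle and 93.5, 85.4 and 91.8 in S211A Dex. In cells that also received MDFIC it was 51174, 39866 and 50772 under vehicle and 44977, 35298 and 54801 under Dex. The 6 arrays labelled S211A+MDFIC were all high and the 6 arrays labelled S211A alone were all low, with no value in between. Since the probe was chosen for following the transfection, this agreement with the labels was fixed by the choice and is no check of them. On the log2 scale relative to the 75th percentile, the probe lay at -3.15 ± 0.04 in S211A vehicle and at 5.55 ± 0.10 in S211A+MDFIC vehicle (SD, n = 3). Under Dex it lay at -3.32 ± 0.09 without and 5.51 ± 0.45 with MDFIC (SD, n = 3). The described difference was 8.70 under vehicle (SE 0.18), a 416-fold higher signal, and 8.83 under Dex (SE 0.18), a 455-fold higher signal. The comparison with MDFIC called 0.756% of all tested probes under vehicle and 0.285% under Dex, and nothing is read from that share for a probe chosen in this contrast. Fewer cells carrying the construct and less MDFIC RNA per cell cannot be told apart in such bulk samples.

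**Figure D1:**
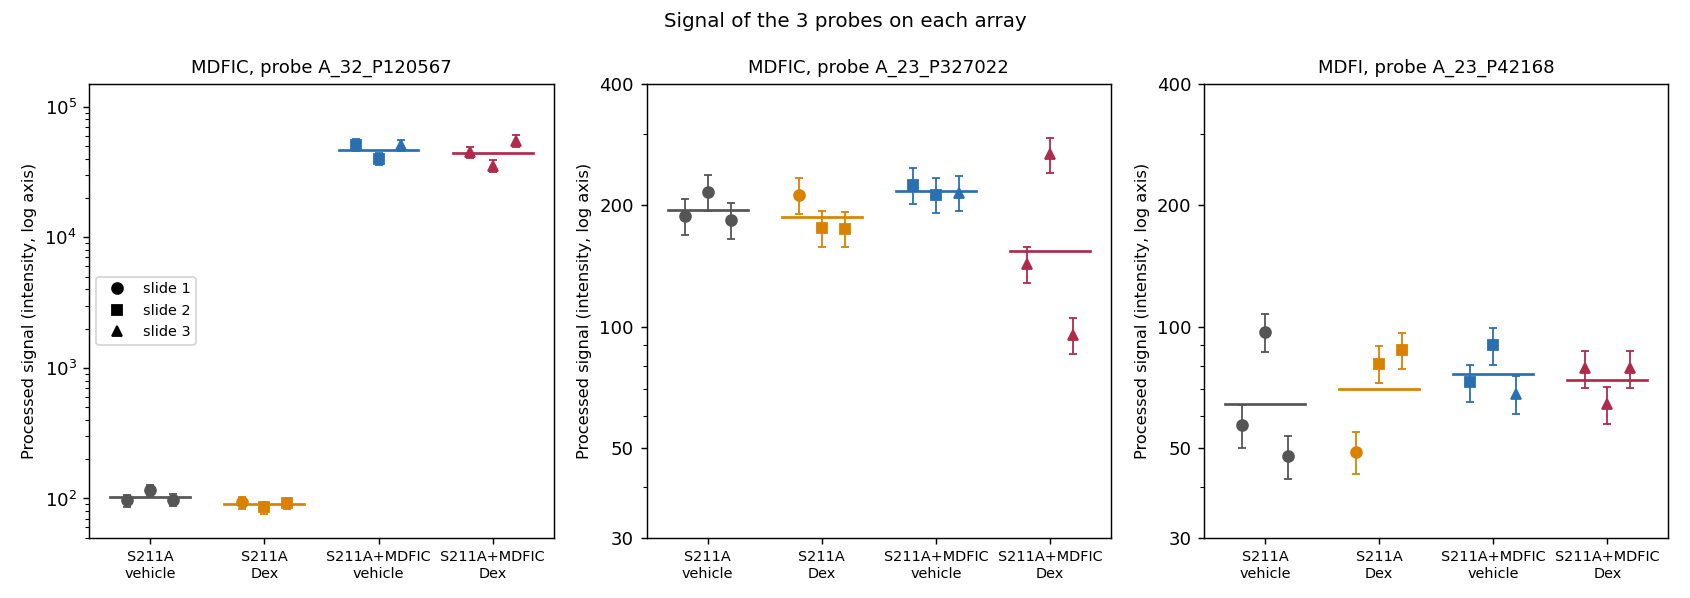
Processed signal (intensity, log axis) of the 3 probes on each array by group, each panel with its own axis; points are arrays, marker shape is the slide, error bars are the scanner software's error of each spot, and horizontal lines are geometric means. Probe A_32_P120567 lies between 85.4 and 116 on the 6 arrays without transfected MDFIC and between 35298 and 54801 on the 6 with it; probe A_23_P327022 spans its widest range in S211A+MDFIC Dex, from 95.2 to 267.

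The size of that difference joins 2 gains of the scanner. On all 6 S211A+MDFIC arrays, and on none of the 6 S211A arrays, the spot carried the flag for values read at the lower gain and scaled up, with scaling slopes of 9.86 to 10.3 over the 12 arrays. The local background beside the spot was similar on bright and dim arrays, at 30.5 to 40 and 31 to 37 intensity units. With normexp background correction, whose offset of 50 raises dim signals most, the difference was 8.05 under vehicle and 8.18 under Dex, or 265-fold and 291-fold. Slide 2 held both transfections, although with Dex only on the S211A side, and there the probe differed by 8.88 between 2 S211A Dex arrays and 2 S211A+MDFIC vehicle arrays. A fixed block for slide gave 8.80 under vehicle and 8.78 under Dex.

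Without transfected MDFIC the probe was still above background: on the 6 S211A arrays its uncorrected median signal was 3.65 to 5.40 times the local background. Whether this low signal is the monkey's own MDFIC RNA was not tested.

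Dex did not change the A_32_P120567 signal past the threshold in either transfection. In S211A cells the 3 Dex arrays were all below the 3 vehicle arrays, without overlap. The share of all tested probes that separate in this way was not counted, and nothing is read from it. The log2 difference was -0.17 (SE 0.18, 95% interval -0.57 to 0.23, limma adjusted p = 0.658), in a comparison that called 6.14% of all tested probes. This fit takes its spread from all 4 groups, including the scattered S211A+MDFIC Dex arrays. With only the S211A groups in the fit the same difference had an SE of 0.07, a 95% interval of -0.33 to -0.0056 and a limma adjusted p of 0.243. In S211A+MDFIC cells the Dex and vehicle ranges overlapped, and the difference was -0.04 (SE 0.18, 95% interval -0.44 to 0.36, limma adjusted p = 0.908). This interval allows the signal of transfected cells under Dex to be 0.737-fold to 1.28-fold that under vehicle. The 2 Dex effects differed by 0.13 (SE 0.25, 95% interval -0.43 to 0.69, limma adjusted p = 0.873), and this value was 0.32 without S211A+MDFIC Dex replicate 2 (limma adjusted p = 0.428) and -0.12 without replicate 3 (limma adjusted p = 0.888).

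Within S211A+MDFIC Dex the construct signal was less even than in the other groups. Replicate 3 was the highest of the 12 arrays at 6.01 on the log2 scale, and replicate 2 the lowest of the 6 transfected arrays at 5.13. On this scale S211A+MDFIC vehicle ran only from 5.44 to 5.61. The highest and lowest processed signals, unscaled between arrays, differed 1.55-fold in S211A+MDFIC Dex and 1.28-fold in S211A+MDFIC vehicle. The scanner's own error for the spot was 10%. The sign of the Dex difference in S211A+MDFIC cells depended on these arrays: it was 0.15 without Dex replicate 2 (limma adjusted p = 0.526) and -0.29 without Dex replicate 3 (limma adjusted p = 0.143).

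The other MDFIC probe, A_23_P327022, stayed in 1 range in 3 of the groups. Its processed signal was 188, 215 and 184 in S211A vehicle, 212, 175 and 175 in S211A Dex, and 224, 212 and 215 in S211A+MDFIC vehicle. In S211A+MDFIC Dex it was 143, 267 and 95.2. The latter group held the highest and the 2 lowest of the 12 values. Under vehicle the levels without and with MDFIC were -2.22 ± 0.04 and -2.20 ± 0.08 (SD, n = 3), a described difference of 0.02 (SE 0.26). Under Dex the levels were -2.27 ± 0.19 without and -2.66 ± 0.66 with MDFIC (SD, n = 3), a described difference of -0.39 (SE 0.26), and the groups overlapped through replicate 2 of S211A+MDFIC Dex. Without that array the difference was -0.76, and without replicate 3 it was -0.14. Both values are descriptions, since this contrast carries no test at the MDFIC probes. Where each probe lies on the MDFIC transcript is not given in the sources used here, so A_23_P327022 neither checks nor contradicts the labels.

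Dex was tested at this probe in both transfections. In S211A cells the Dex and vehicle arrays overlapped and the difference was -0.04 (SE 0.26, 95% interval -0.62 to 0.53, limma adjusted p = 0.950), or -0.15 without S211A Dex replicate 1. In S211A+MDFIC cells it was -0.46 (SE 0.26, 95% interval -1.03 to 0.12, limma adjusted p = 0.295), with 2 Dex arrays below and 1 above all 3 vehicle arrays. The array above was S211A+MDFIC Dex replicate 2, which lay apart from replicates 1 and 3 over all probes. Without it the probe was lower under Dex by a log2 difference of -0.83 (SE 0.11, 95% interval -1.09 to -0.57), or 0.563-fold, and passed at a limma adjusted p of 0.00328. That fit called 17.9% of all probes in this comparison, against 9.48% with all 12 arrays, and the remaining 2 Dex arrays had signals of 143 and 95.2 against 212 to 224 under vehicle. Leaving out Dex replicate 3 instead gave -0.20.

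The difference between the Dex effects at A_23_P327022 was -0.41 (SE 0.37, 95% interval -1.23 to 0.40, limma adjusted p = 0.719) with all arrays and -0.79 (SE 0.15, limma adjusted p = 0.0632) without S211A+MDFIC Dex replicate 2. Neither passed, in a test that called 0.186% of all probes with all 12 arrays. Slide 3 held 1 vehicle and all 3 Dex arrays of the S211A+MDFIC cells, and Dex minus vehicle within it was -0.39. Within slide 1, which held 1 Dex and 3 vehicle arrays of S211A cells, it was 0.17, and the 2 Dex arrays on slide 2 were the lower ones of their group.

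**Figure D2:**
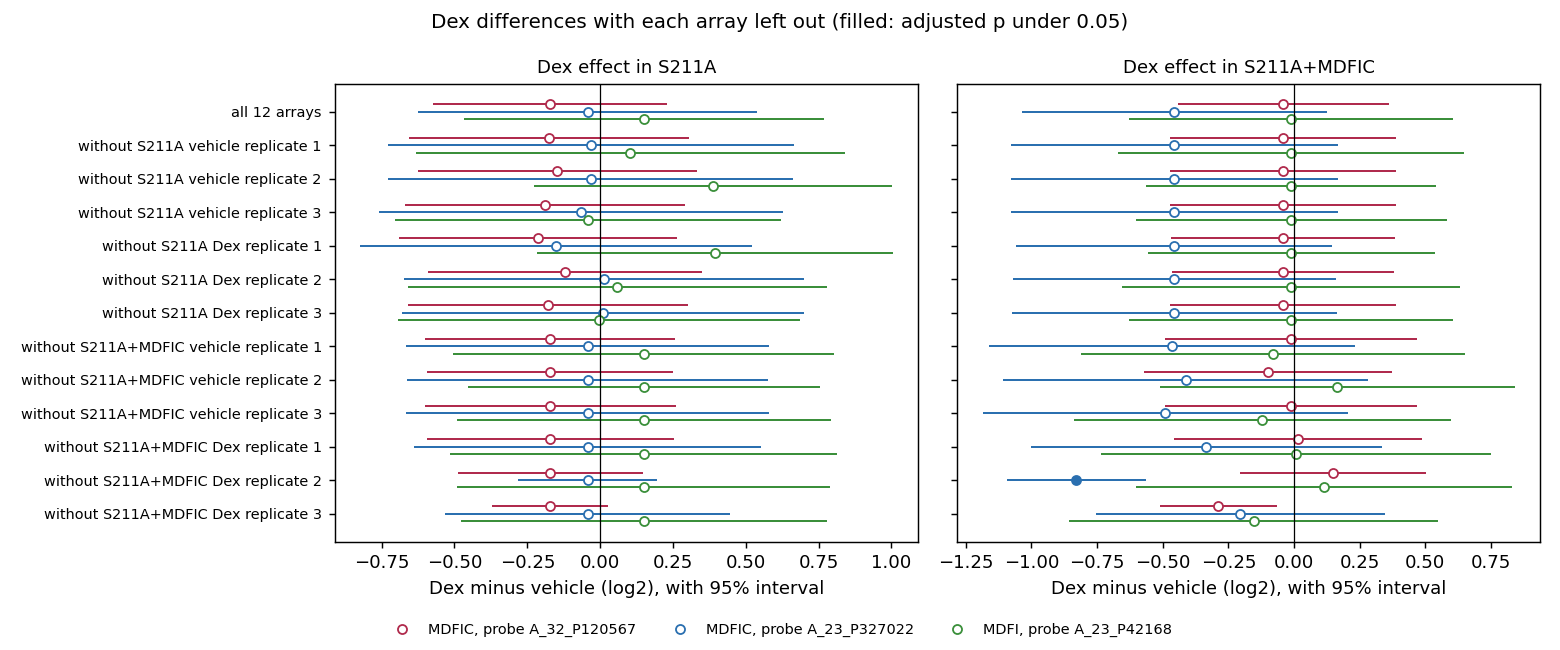
Dex minus vehicle on the log2 scale with its 95% interval (limma) for the 3 probes, for both transfections, with all 12 arrays and with each array left out; filled points have an adjusted p under 0.05. The only filled point is probe A_23_P327022 in S211A+MDFIC cells without Dex replicate 2, at -0.83.

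The MDFIC probes moved in opposite order over the 3 S211A+MDFIC Dex arrays. Replicate 3 was highest at A_32_P120567 (54801) and lowest at A_23_P327022 (95.2), replicate 2 was lowest at the first (35298) and highest at the second (267), and replicate 1 lay between at both. In S211A+MDFIC vehicle the processed signals, unscaled between arrays, varied 1.06-fold at A_23_P327022 and 1.28-fold at A_32_P120567. On the log2 scale, where each array is scaled, the ranges were of similar width. They ran from -2.27 to -2.12 at A_23_P327022 and from 5.44 to 5.61 at A_32_P120567. With 3 arrays the opposite order under Dex is only an order, and no relation was tested.

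The MDFI probe gave a low signal on all arrays, with an uncorrected median signal of 2.60 to 4.55 times the local background. Whether this low signal is the monkey's own MDFI RNA was not tested. The probe did not pass in any of the 5 comparisons, which called 0.186% to 9.48% of all tested probes. Missing the threshold is thus common to most probes and says little of MDFI. Its processed signal was 57.0, 97.1 and 47.8 in S211A vehicle and 49.0, 80.9 and 87.5 in S211A Dex. It was 72.9, 89.9 and 68.2 in S211A+MDFIC vehicle and 78.9, 64.2 and 78.9 in S211A+MDFIC Dex. The lowest values came from slide 1 (47.8, 49.0 and 57.0) and so did the highest (97.1), and all 4 groups overlapped. The levels were -3.83 ± 0.44, -3.68 ± 0.43, -3.71 ± 0.31 and -3.72 ± 0.27 in the same order (SD, n = 3). The group means ran from S211A vehicle, the lowest, through S211A+MDFIC Dex and S211A+MDFIC vehicle to S211A Dex, and no neighbours in that order differed by more than the larger of their SDs.

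Transfected MDFIC gave no difference in the MDFI signal past the threshold. S211A+MDFIC minus S211A was 0.12 under vehicle (SE 0.27, 95% interval -0.50 to 0.73, limma adjusted p = 0.877), which allows 0.709-fold to 1.66-fold. Under Dex it was -0.04 (SE 0.27, 95% interval -0.66 to 0.57, limma adjusted p = 0.959), which allows 0.634-fold to 1.48-fold. No slide held both groups of either comparison, so slide and transfection can be separated only through the other groups. A fixed block for slide turned the difference under vehicle to -0.50 (limma adjusted p = 0.688), and that under Dex to 0.04 (limma adjusted p = 0.999). Leaving out single arrays moved the difference under vehicle between -0.07 (without S211A vehicle replicate 3) and 0.36 (without S211A vehicle replicate 2). Under Dex it was 0.08 without S211A+MDFIC Dex replicate 2 and -0.29 without S211A Dex replicate 1, and the 12 leave-outs ran from -0.29 to 0.11.

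Dex also gave no difference in MDFI past the threshold. It was 0.15 in S211A cells (SE 0.27, 95% interval -0.46 to 0.76, limma adjusted p = 0.820) and -0.01 in S211A+MDFIC cells (SE 0.27, 95% interval -0.63 to 0.60, limma adjusted p = 0.984). The 2 effects differed by -0.16 (SE 0.39, 95% interval -1.03 to 0.71, limma adjusted p = 0.898). In S211A cells the Dex difference was 0.39 without S211A Dex replicate 1 (limma adjusted p = 0.423) and -0.04 without S211A vehicle replicate 3 (limma adjusted p = 0.965). In S211A+MDFIC cells it was 0.11 without Dex replicate 2 (limma adjusted p = 0.824), in a range of -0.15 to 0.17 over the 12 leave-outs. The difference between the effects ran from -0.40 without S211A Dex replicate 1 to 0.03 without S211A vehicle replicate 3, and was -0.04 without S211A+MDFIC Dex replicate 2. The fixed slide block gave -0.34 (95% interval -1.12 to 0.45), 0.21 (95% interval -0.58 to 0.99) and 0.54 (95% interval -0.57 to 1.66). Each was of opposite sign to the fit without it, and none passed the threshold. Each interval holds for its own fit, so the changes in the MDFI signal left possible depend on whether slide is fitted.

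**Figure D3:**
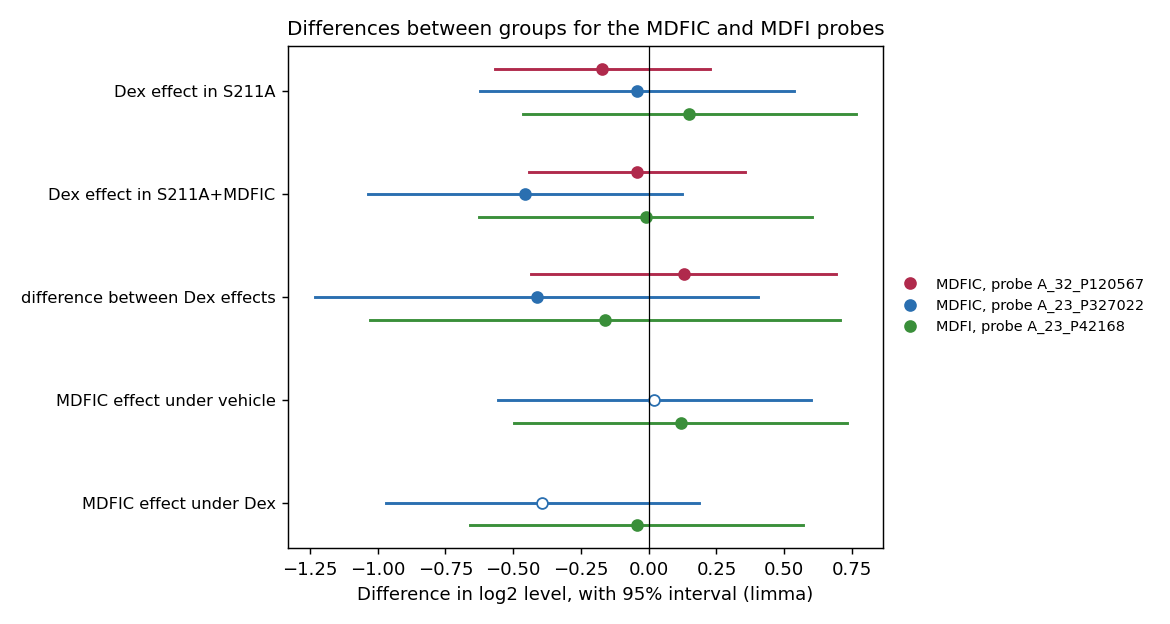
Differences in log2 level for the 3 probes in the 5 comparisons, with 95% intervals (limma, all 12 arrays); filled points were tested and open points are descriptions. The difference of probe A_32_P120567 with MDFIC, 8.70 under vehicle and 8.83 under Dex, lies outside the axis and is not drawn, and every interval drawn includes 0.

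All 3 probes varied more between replicates than most. The residual SD on the log2 scale was 0.37 for MDFI, 0.35 for A_23_P327022 and 0.24 for A_32_P120567, against a median of 0.12 over all tested probes, and these lie at the 85.7th, 84.4th and 75.1st percentiles. The scanner's error for a spot was 10.0% to 12.1% of the signal, below the spread between replicates of MDFI. Of the 11 tested differences, 0 passed in limma at an adjusted p under 0.05, and 0 had an unadjusted p under 0.05. The shares of all tested probes called were 6.14% and 9.48% for Dex in S211A and S211A+MDFIC cells, 0.756% and 0.285% for MDFIC under vehicle and Dex, and 0.186% for the difference between the Dex effects, and 0 of 11 is near these shares.

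The probes whose levels most resembled each member over the 12 arrays were sought among 24458 probes well above background on every array. They are named by accession because no table pairing accessions with symbols was used here. Arrays share slides and scaling, and the values of r describe likeness only. For A_23_P327022 the closest were NM_014805 (r = 0.984) and NM_004571 (r = 0.972). NM_014805 lay at -2.06, -1.33 and -2.11 in S211A+MDFIC Dex and between -1.65 and -1.41 on the other 9 arrays. It thus had the low replicates 1 and 3 and the high replicate 2 that A_23_P327022 showed, over a smaller range of 0.777 against 1.25 on the log2 scale. Such a likeness was fixed by the search and is no check of the pattern. NM_004571 lay at 0.19, 0.75 and 0.18 on the same 3 arrays, in a range of 0.574.

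**Figure D4:**
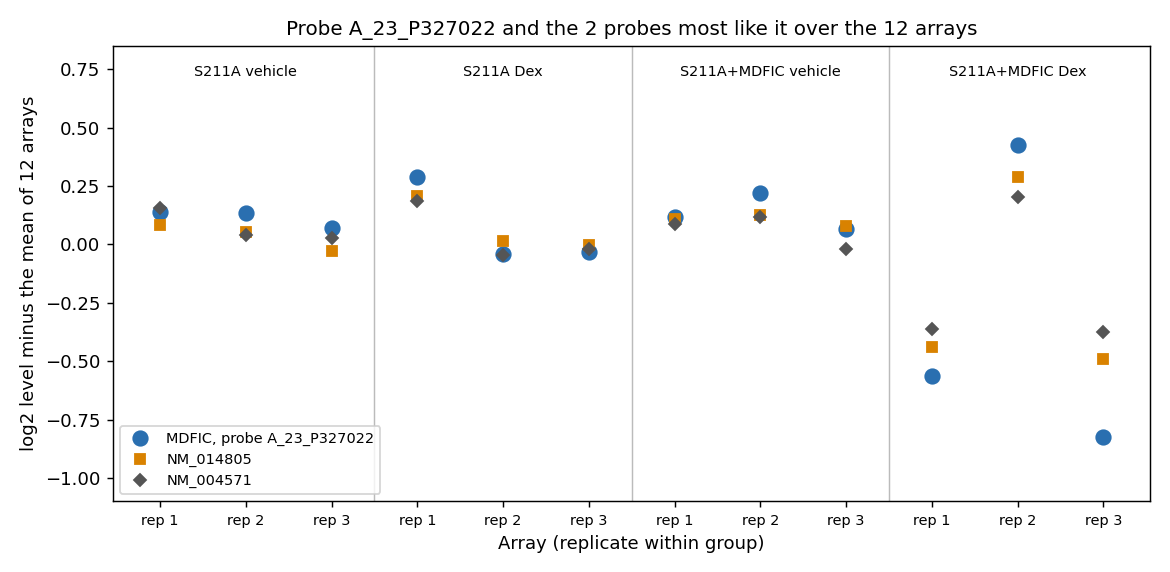
Log2 level minus the mean of 12 arrays for MDFIC probe A_23_P327022 and the 2 probes most like it, NM_014805 and NM_004571, for each array by group. All 3 are low in S211A+MDFIC Dex replicates 1 and 3 and high in replicate 2, and vary less on the other arrays.

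For the construct probe A_32_P120567, the closest were NM_001101401 (r = 0.983) and NM_025165 (r = 0.983). In both, the arrays formed 2 separate clusters by transfection, which was fixed by the search for likeness to a probe split in this way. NM_001101401 lay at -2.55 ± 0.12 and -2.66 ± 0.07 in S211A vehicle and Dex, and at -1.09 ± 0.09 and -1.38 ± 0.15 in S211A+MDFIC vehicle and Dex (SD, n = 3). NM_025165 lay at -1.85 ± 0.06, -1.55 ± 0.03, 0.67 ± 0.12 and 0.26 ± 0.14 in the same order (SD, n = 3). Their ranges over the arrays were 1.72 and 2.68 on the log2 scale, against 9.42 for the construct probe. For MDFI the closest were NM_001001502 (r = 0.947) and AF305822 (r = 0.912), whose group means, like those of MDFI, lay within the spread between replicates.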

How the data were processed

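Cy3-labelled RNA of 12 samples was hybridised to 12 one-colour Agilent arrays, and the authors' deposited values are linear intensity readings. Each array has 45015 spots, and the software was Feature Extraction, version 12.0.0.7, per the file headers. Other 0 or 1 flags (well above background, saturated, outlier, lower gain) are as deposited. The deposited table of the series equals these processed signals. Here the processed signal was taken to log2, the 945 outlier spots were set to missing, each array's 75th percentile was subtracted, spots of 1 probe were averaged, and 1639 control spots left out. A probe was tested if at least 1 group had it well above background throughout and each group had 2 or more values, which left 31230. Groups were compared with limma 3.58.1 (R 4.3.3), two-sided, Benjamini-Hochberg over all probes of a comparison. The fit was also run on simulated data with independent noise and no slide effects or outlying arrays, so that run does not cover those features. Figures used matplotlib 3.10.9.

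The members and rules were chosen with earlier results of these data known. The rule for named genes took all probes of both accessions and the probes most like each by Pearson r, at most 2 accessions each. Lists of pathway and cell type genes, and any sequence, need symbols or a reference and were not analysed here. The names MDFIC and MDFI come with the accessions chosen and not from the files. Alternatives were normexp, 3 other scalings, 2 other filters, outliers kept, trended moderation, only the compared groups, slide or replicate number as a block, and each array left out. In the main fit each p-value rests on a spread between replicates pooled over all 4 groups, which limma moderates using all tested probes. The small size of each group, at 3 replicates, restricts how precise the differences are.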

Additional observations from a re-analysis of the deposited data

How the results depend on the processing

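Of 357 re-computed differences, 324 kept their direction and side of the threshold (or moved by less than the spread between replicates). Another 27 reversed in sign, 1 newly passed, and 5 untested ones moved by more than that spread. Many of the 324 could not change in value. Leaving out an array outside the groups compared returns the same difference, as do other filters, other moderation, fitting only the compared groups, and the replicate block. The count is thus no measure of robustness. No difference that reversed passed the threshold, and the causes of these changes were not tested. With slide as a fixed block, A_23_P327022 stood at 0.17 for Dex in S211A and moved to 0.38 for MDFIC under vehicle, A_32_P120567 stood at -0.015 for the difference between the Dex effects, and MDFI stood at -0.34, 0.21 and 0.54 for Dex in S211A, Dex in S211A+MDFIC and their difference, and at -0.50 and 0.040 for MDFIC under vehicle and under Dex. With normexp, A_32_P120567 stood at 8.05 and 8.18 for MDFIC under vehicle and Dex, and MDFI at 0.013 for Dex in S211A+MDFIC and -0.064 for MDFIC under vehicle. Without scaling, MDFI stood at 0.068 for MDFIC under Dex.

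With each array left out in turn, A_23_P327022 ran from -0.15 to 0.013 for Dex in S211A, from -0.83 to -0.20 for Dex in S211A+MDFIC (1 of 12 passed, without Dex replicate 2), from -0.023 to 0.055 for MDFIC under vehicle, from -0.76 to -0.14 for MDFIC under Dex, and from -0.79 to -0.16 for the difference between the Dex effects. A_32_P120567 ran from -0.21 to -0.12, -0.29 to 0.15, 8.67 to 8.76, 8.58 to 9.02 and -0.12 to 0.32 in the same order. MDFI ran from -0.042 to 0.39, -0.15 to 0.17, -0.074 to 0.36, -0.29 to 0.11 and -0.40 to 0.030.

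The replicate numbers gave no clear pairing of the arrays, and a pairing was not tested. Deviations of same-numbered arrays correlated between -0.248 and 0.238, with 4 of 18 pairs above 0.1. Those of arrays with other numbers correlated between -0.212 and 0.306, with 3 of 36 pairs above 0.1. Of the 12 arrays, 4 correlated best with their own number. The replicate block changed no call; for Dex in S211A+MDFIC A_23_P327022 stood at -0.46 with the replicate block (limma adjusted p = 0.290).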
